A study of Homo sapiens with 64 samples.

Results

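The mitochondrial genome of human cells encodes 13 proteins, all of them subunits of the respiratory chain or of ATP synthase, beside 2 ribosomal RNAs and a set of transfer RNAs. The genes described here are 10 of those 13, taken by symbol from the 54127 gene rows of each count file: MT-ND1, MT-ND2, MT-ND4, MT-ND5, MT-ND6, MT-CO1, MT-CO2, MT-CO3, MT-CYB and MT-ATP6. They were chosen on the share of counts and the scaled counts (CPM) they had in earlier results of these samples, in label-retaining cells (LRCs) against the other sorted cells and in the control cultures, so their values in those contrasts are given as a description with no test. All 10 were found, and all 10 passed the count filter in every comparison.

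Total RNA was sequenced from 6 colorectal cancer cell lines grown as non-adherent spheroids with bFGF and EGF. The lines stand for 3 colorectal cancer subtypes (CCS), with HT55 and SW948 in CCS1, RKO and SW48 in CCS2, and DLD1 and HCT15 in CCS3. Cells were stained with CFSE, a protein dye that is diluted at each division, and on day 6 were sorted into LRCs, which kept a high CFSE signal, and non-LRCs, the bulk of cycling cells. Each line has 4 LRC and 4 non-LRC samples. A further 16 DLD1 cultures were not sorted: 4 unlabeled and 4 CFSE-labeled on day 1, and 4 of each on a later day, which the sample titles give as day 5 and the design text as day 6. The study's methods call the replicates biological quadruplicates, and the labels do not say which cultures they came from, so p-values measure the spread between these samples. The depth was 12237225 to 20913455 counts on genes per sample, with a median of 15063858. CPM are counts scaled to a common library size with edgeR's TMM factors over the 64 samples. For the epithelial, blood, endothelial and stromal markers, counts were scaled by the sample's counts on genes alone, without these factors. Epithelial markers (EPCAM, CDH1, KRT8, KRT18, KRT19) summed to between 2501 and 12933 CPM in the sorted samples of 5 lines. In RKO they reached no more than 287 CPM, and CDH1 and KRT19 lay under 1 CPM in its non-LRCs. Of 8 markers of blood, endothelial and stromal cells 7 were found, and their sum was at most 22.2 CPM in any sorted sample.

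As background, complex I (NADH dehydrogenase) takes electrons from NADH, complex III passes them from ubiquinol to cytochrome c, and complex IV (cytochrome c oxidase) passes them to oxygen, while the protons pumped on the way drive ATP synthase. MT-ND1, MT-ND2, MT-ND4, MT-ND5 and MT-ND6 are membrane subunits of complex I, MT-CYB is the cytochrome b of complex III, MT-CO1, MT-CO2 and MT-CO3 form the core of complex IV, and MT-ATP6 belongs to the proton channel of ATP synthase. The remaining subunits are encoded in the nucleus, and complex II is encoded there whole. Mitochondrial genes are transcribed as long precursors from both strands of the circular genome and are then cut into single RNAs, so most of the 10 share a precursor and differ afterwards in processing and stability. MT-ND6 is the only protein gene of the 13 on the opposite strand.

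The genes are listed in GRCh37 coordinates, on the + strand unless stated. MT-ND1 spans chrM:3307-4262, MT-ND2 chrM:4470-5511, MT-CO1 chrM:5904-7445, MT-CO2 chrM:7586-8269, MT-ATP6 chrM:8527-9207, MT-CO3 chrM:9207-9990, MT-ND4 chrM:10760-12137, MT-ND5 chrM:12337-14148, MT-ND6 chrM:14149-14673 on the - strand, and MT-CYB chrM:14747-15887. None has an intron. MT-ATP6 overlaps MT-ATP8 by 46 bases and MT-CO3 by 1, and MT-ND4 overlaps MT-ND4L by 7. A read that reaches into those stretches can be ambiguous between the genes.

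Which reads could be counted for these genes depends on copies of mitochondrial DNA in the nuclear genome. One such copy runs along chromosome 1 at chr1:564464-570304 and corresponds to chrM:3914-9755, from MT-ND1 to MT-CO3. Of all 50-base windows, the read length used, an exact match also lay in the nuclear genome for 50.6% in MT-CO1, 48.3% in MT-ATP6, 43.6% in MT-ND2, 30.9% in MT-CO3, 29.0% in MT-CO2, 25.6% in MT-ND1 and 20% in MT-ND6. The share was 4.76% in MT-ND5, 3.54% in MT-ND4 and 1.65% in MT-CYB. Stretches of 4 genes and of their chromosome 1 copies are shown because they hold what a read of this length could use to tell gene from copy; capitals mark the bases that differ.
MT-CO1, chrM:6650-6699, + strand: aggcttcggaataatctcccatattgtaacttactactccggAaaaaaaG
MT-CO1 copy, chr1:567200-567249, + strand: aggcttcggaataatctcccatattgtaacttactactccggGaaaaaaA
MT-ATP6, chrM:8842-8891, + strand: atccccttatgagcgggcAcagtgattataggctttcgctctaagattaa
MT-ATP6 copy, chr1:569391-569440, + strand: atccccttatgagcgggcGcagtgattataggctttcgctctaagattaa
MT-CO2, chrM:7903-7952, + strand: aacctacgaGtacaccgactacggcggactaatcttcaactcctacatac
MT-CO2 copy, chr1:568454-568503, + strand: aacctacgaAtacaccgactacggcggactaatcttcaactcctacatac
MT-CO3, chrM:9574-9623, + strand: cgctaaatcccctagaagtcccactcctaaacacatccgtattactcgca
MT-CO3 copy, chr1:570123-570172, + strand: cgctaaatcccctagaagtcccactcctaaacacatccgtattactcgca
The MT-CO1 pair differs at 2 bases, the MT-ATP6 and MT-CO2 pairs at 1 base each, and the MT-CO3 pair at none. These stretches come from the reference, not from the cell lines. Which mitochondrial sequence stood in the hg19 index used for the counts is not given in the sources used here, and the windows hold for the reference sequence only.

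The copies have gene rows of their own, and 2 of them set RKO widely apart from the other lines. MTND1P23, the copy of MT-ND1, held 9.19% ± 0.50 (SD, n = 8 samples) of the counts of copy and gene together in RKO and 0.025% to 0.040% on average in the other 5 lines. MTCO1P12, the copy of MT-CO1, held 6.80% ± 0.51 in RKO and 0.443% to 0.512% elsewhere. In these 2 ratios no RKO sample overlapped a sample of another line. The line means of the other copies lay closer together. MTATP6P1 held 9.47% to 10.7% on average, highest in RKO, and MTND2P28 2.59% to 3.49%. For MTATP6P1 RKO did not overlap the others either, but narrowly. Its lowest RKO sample had 10.45%, and the highest of the other samples, among the DLD1 controls, 10.41%. MTCO2P12 held about 0.04% and MTCO3P12 about 0.02%. Adding the copies' counts to the genes left the median log2 difference of the 10 genes between LRCs and non-LRCs at 0.24 across the lines and 0.78 in RKO.

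**Figure D1:**
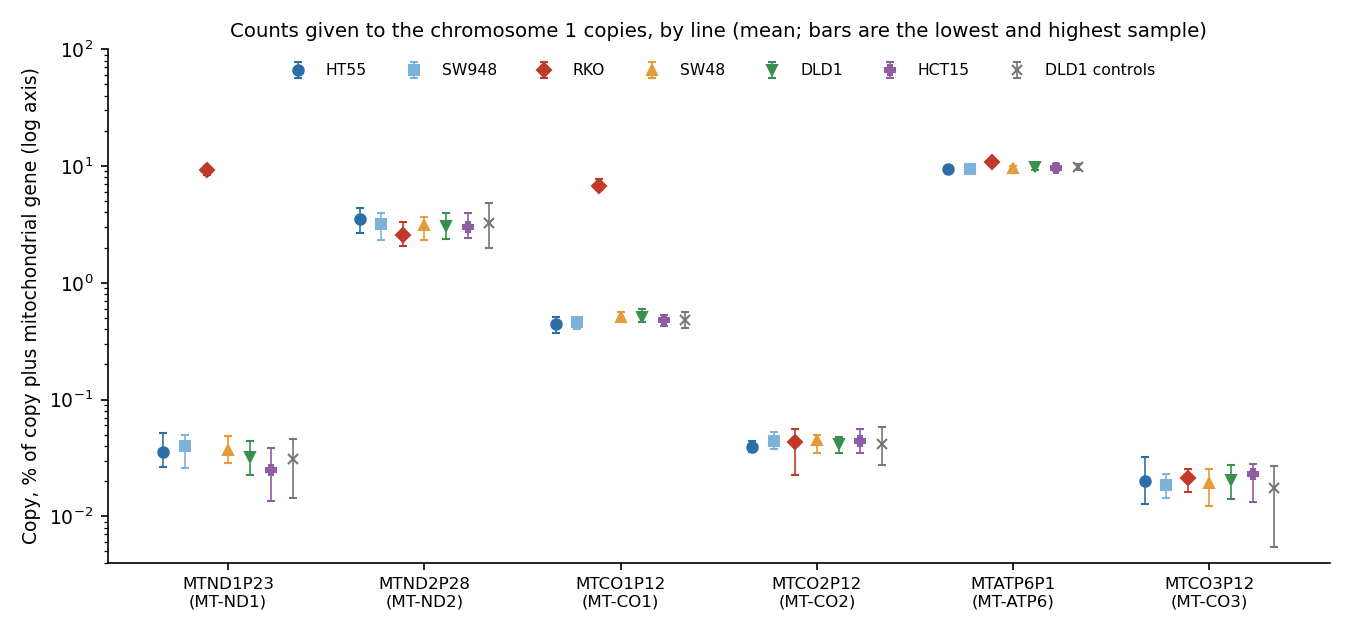
Share of the counts of gene and copy together that fell on the chromosome 1 copy, in percent on a log axis, for 6 copies; points are means over the samples of a line or of the DLD1 controls, and bars run from the lowest to the highest sample. MTND1P23 (9.19%) and MTCO1P12 (6.80%) stand apart in RKO, while the points of the other 4 copies lie close together.

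The 10 genes together took 2.04% to 12.8% of all counts on genes in the 64 samples. MT-ND4 had the highest count of any gene in the median sample, and MT-CO1 the second highest. MT-ND6 was far below, at a median rank of 7384 and with 139 to 1139 counts per sample, where the other 9 genes had 12180 to 460472. Values for MT-ND6 are therefore the least precise of the 10, and without a stated strand setting its reads cannot be told apart from those of the opposite strand.

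**Figure D2:**
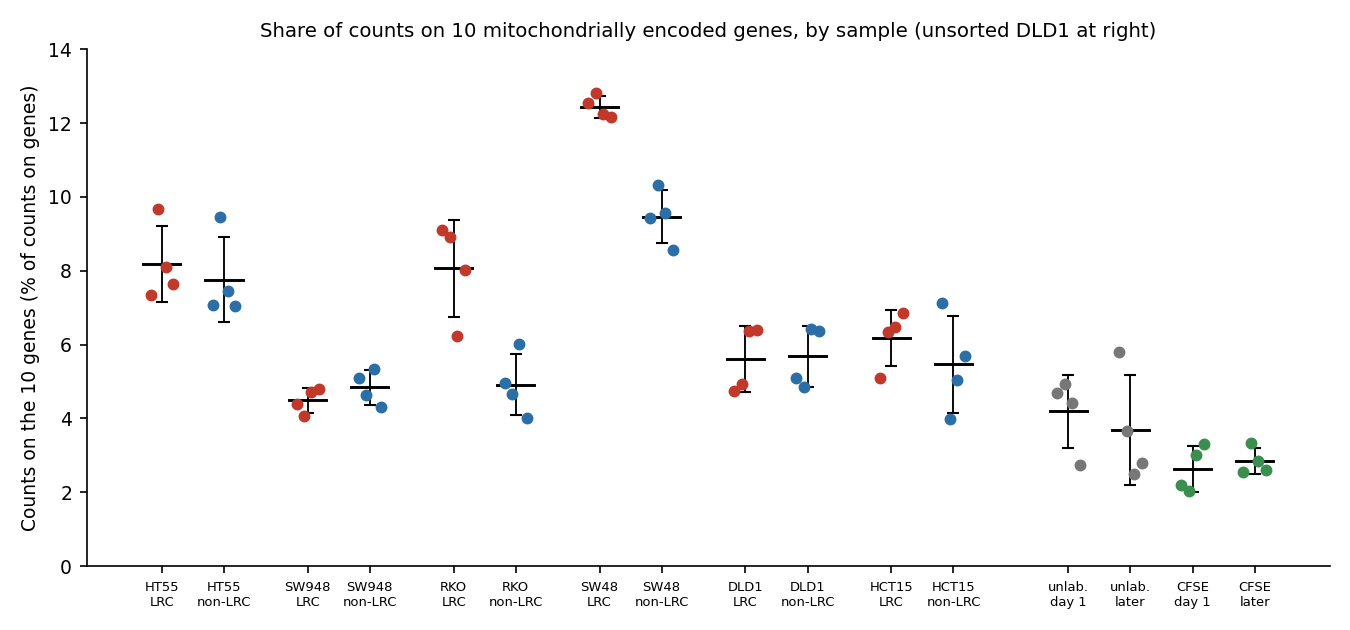
Summed share of the 10 genes in the counts on genes, in percent, for each of the 64 samples; points are samples (red, LRCs; blue, non-LRCs; grey, unlabeled controls; green, CFSE-labeled controls) and bars mark the group mean ± SD (n = 4). LRCs lie above non-LRCs with no overlap in RKO (8.07% and 4.91%) and SW48 (12.4% and 9.46%), and the means of the unsorted DLD1 controls lie lowest.

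The lines differed in how much mitochondrial RNA they held. In non-LRCs the summed share was highest in SW48 at 9.46% ± 0.72 (SD, n = 4), followed by HT55 at 7.76% ± 1.15, DLD1 at 5.68% ± 0.83, HCT15 at 5.47% ± 1.32, RKO at 4.91% ± 0.83 and SW948 at 4.84% ± 0.47. Among neighbours in that order only HT55 and DLD1 did not overlap. SW48 exceeded SW948 by 1.95 times, and the lines of CCS2 (SW48 and RKO) stood near opposite ends. The choice of the 10 genes used these non-LRC values, so their levels by line are a description and no p-value is given for them. Of all 15779 genes tested over the 24 non-LRC samples, 98.3% differed between the 6 lines (edgeR quasi-likelihood F test, Benjamini-Hochberg adjusted p under 0.05). A difference between lines was thus the rule for any gene.

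Which line was highest depended on the gene. SW48 had the highest non-LRC mean for 7 genes and HT55 for MT-ND2, MT-CO2 and MT-CYB. The widest span between lines was that of MT-ND6, at 59.995 CPM in SW48 and 15.3 CPM in SW948 (3.91 times), and MT-ND1 spanned 5518 CPM in SW48 to 1710 CPM in RKO (3.23 times). The narrowest were MT-ATP6 (1.89 times, 4642 CPM in SW48 and 2454 CPM in SW948) and MT-CO3 (1.91 times, 11885 CPM in SW48 and 6221 CPM in HCT15).

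Between genes, levels were compared per length, as CPM per kilobase of gene. In RKO non-LRCs MT-CO3 led with 10556 ± 1907 (SD, n = 4) CPM per kb, ahead of MT-CO1 with 7893 ± 1483, and MT-ND1 had 1789 ± 287. In SW948 non-LRCs the lead also fell to MT-CO3, with 9745 ± 1023 CPM per kb, while in HT55 MT-CO2 led with 15542 ± 1852. In all 6 lines each of the 3 complex IV subunits stood above every complex I subunit other than MT-ND4. MT-ND6 was the lowest of the 10 in every line, and its level per kb was 1.34% to 2.40% of that of MT-ND5 in the 16 group means. The order changed with the stretches counted: per kb of windows with no exact nuclear match, MT-CO1 moved from rank 5 to rank 3 in HT55 non-LRCs and from rank 2 to rank 1 in RKO non-LRCs.

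**Figure D3:**
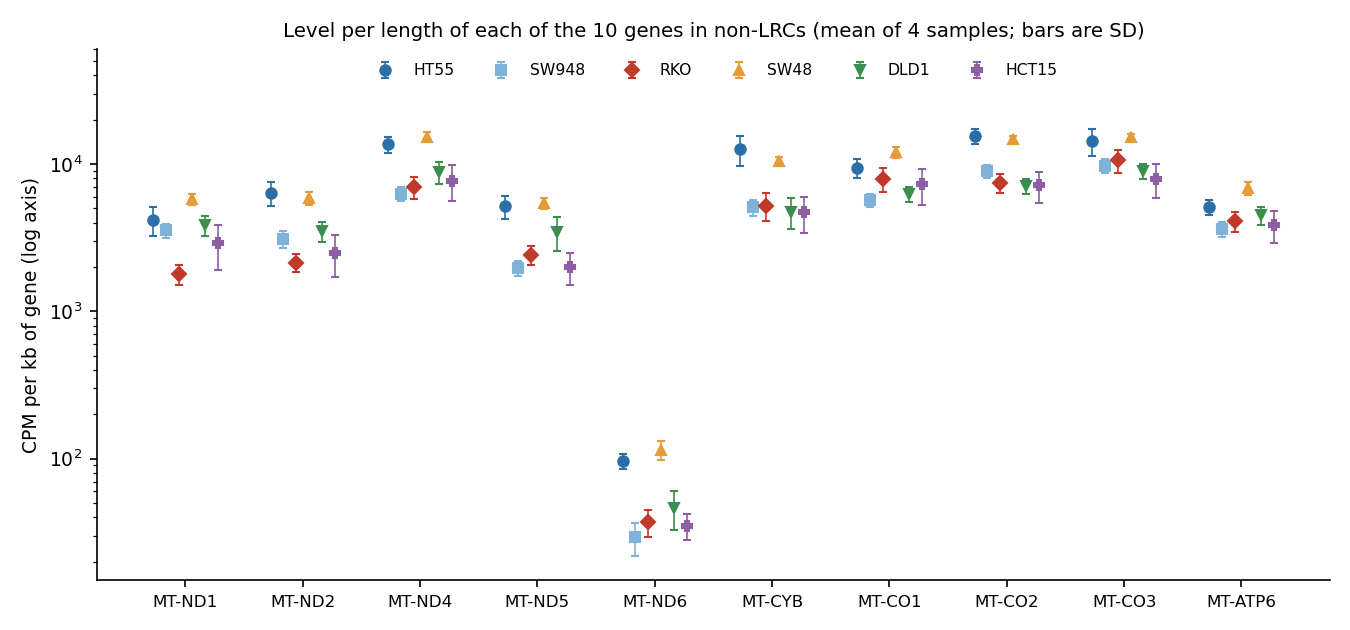
Mean level of each gene in non-LRCs as CPM per kilobase of gene on a log axis, by line; error bars are the SD of 4 samples. MT-ND6 lies lowest in all 6 lines, and genes of complex IV and MT-ND4 lie at the top.

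Within groups the genes moved together. After the group mean was taken off, the median correlation of a gene with the other 9 over the 48 sorted samples was 0.84 to 0.93, and for MT-ND6 it was 0.19. These values describe samples that share library and depth.

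LRCs were compared with non-LRCs to see how the RNA of dormant cells differs from that of cycling cells of the same line, and the 10 genes differed most in RKO. Their summed share in RKO LRCs was 9.10%, 8.91%, 6.23% and 8.03%, and in RKO non-LRCs 4.95%, 4.66%, 6.01% and 4.02%. The groups did not overlap, though LRC replicate 3 and non-LRC replicate 3 lay close together. The means were 8.07% ± 1.31 and 4.91% ± 0.83 (SD, n = 4), a difference of 3.16 percentage points (SE 0.78). In bulk RNA, fewer cells of a type and less RNA per cell cannot be told apart.

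Within complex I the largest RKO difference among well-counted genes was that of MT-ND5. MT-ND5 stood at 11129, 9947, 7183 and 10223 CPM in LRCs and at 4329, 4391, 5241 and 3619 CPM in non-LRCs, a log2 fold change of 1.10 ± 0.14 (SE). All 4 LRC samples were above all 4 non-LRC samples. MT-ND1 stood at 4126, 3772, 2490 and 3214 CPM in LRCs and at 1698, 1648, 2079 and 1416 CPM in non-LRCs (log2 0.96 ± 0.14), again without overlap. For MT-ND6 the log2 fold change was larger still, 1.23 ± 0.23, but LRC replicate 3, at 21.9 CPM, fell within the non-LRC range of 14.2 to 22.6 CPM. MT-ND2 (0.80 ± 0.14) and MT-ND4 (0.69 ± 0.15) followed.

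In RKO the mean log2 fold change of the complex IV genes was below that of the complex I genes, though MT-CO1 exceeded MT-ND4. MT-CO2, the subunit that receives electrons from cytochrome c, stood at 6904, 6961, 5000 and 6047 CPM in LRCs and at 5195, 5057, 6032 and 4139 CPM in non-LRCs. These groups overlapped, and its log2 fold change of 0.26 ± 0.13 was the smallest of the 10. MT-CO1, the catalytic subunit, had 24925, 23583, 15707 and 20240 CPM in LRCs against 12092, 11333, 15327 and 9930 CPM in non-LRCs (log2 0.77 ± 0.15), and here LRC replicate 3 lay just above the highest non-LRC sample. MT-CO3 had 0.56 ± 0.14, MT-CYB 0.83 ± 0.15 and MT-ATP6 0.50 ± 0.13.

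As ratios of mean CPM, the 10 genes were 1.22 to 2.36 times as high in RKO LRCs, with a median of 1.75. For 5 of the 10 the LRC and non-LRC ranges did not overlap, against 19.2% of all genes that were higher in LRCs without overlap. The genes had been chosen on this contrast, and nothing is read from the count. Beside this result, RKO LRCs had 7.19% to 9.76% of uniquely mapped reads outside genes and non-LRCs 6.41% to 7.64%. They also had 12480 to 13317 genes with at least 10 counts, against 12371 to 12576. Epithelial markers summed to 242 to 287 CPM in RKO LRCs and 190 to 219 CPM in non-LRCs, and the 7 markers of other cell types to 0.81 to 1.73 CPM and 0.51 to 0.73 CPM, with 4 and 5 of the 7 at 0 in every sample. The part of read quality in the difference was not tested.

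In SW48, the other CCS2 line, the summed share was 12.5%, 12.8%, 12.3% and 12.2% in LRCs and 9.42%, 10.3%, 9.57% and 8.56% in non-LRCs. The groups did not overlap, and LRC replicates were closer to each other than non-LRC replicates. The means were 12.4% ± 0.30 and 9.46% ± 0.72 (SD, n = 4), which differ by 2.98 percentage points (SE 0.39, unpaired). MT-ND2 showed 9987, 8973, 9427 and 8989 CPM in LRCs and 6452, 6155, 6560 and 5216 CPM in non-LRCs (log2 0.61 ± 0.11). MT-ND5 had the same log2 fold change, 0.61 ± 0.11, with 14559 to 15594 CPM in LRCs and 8623 to 10748 CPM in non-LRCs. The smallest values were those of MT-ND6 (0.24 ± 0.12) and MT-ATP6 (0.26 ± 0.11).

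The ratios in SW48 were 1.19 to 1.53 with a median of 1.34, and 8 of the 10 genes did not overlap between groups (4.82% of all genes were higher in SW48 LRCs without overlap). Nothing is read from this count either, since the choice used these values. The 105 calls of SW48 over all genes fell to 6 without replicate 1, to 0 without replicate 3 and to 0 without replicate 4, and rose to 497 without replicate 2.

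In the other 4 lines the groups overlapped in the summed share. HT55 had 8.19% ± 1.04 in LRCs and 7.76% ± 1.15 in non-LRCs (SD, n = 4), and the LRC sample was the higher of each same-numbered pair. Its replicate 2 was the highest sample in both populations, at 9.67% and 9.46%. HCT15 had 6.19% ± 0.76 and 5.47% ± 1.32, with LRCs higher in 3 of 4 pairs. In DLD1 the values were 4.75%, 4.94%, 6.36% and 6.40% in LRCs and 5.08%, 4.85%, 6.41% and 6.37% in non-LRCs. There replicates 3 and 4 lay above replicates 1 and 2 in both populations, and the difference of the means was -0.06 percentage points (SE 0.61, unpaired). This unpaired SE includes the spread between replicates that both populations share, so it is too wide for the paired samples. SW948 had 4.50% ± 0.34 and 4.84% ± 0.47, with LRCs higher in 1 of 4 pairs.

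The median log2 fold change of the 10 genes was 0.22 in HCT15, 0.06 in HT55, -0.01 in DLD1 and -0.10 in SW948, beside 0.78 in RKO and 0.42 in SW48. In HT55 and SW948 edgeR called no gene at all (0% of 13391 and of 13674). There 1005 and 2350 genes had an unadjusted p under 0.05, and DESeq2 called 37 and 245. By edgeR HT55 had 808 calls without replicate 2 and SW948 940 without replicate 4. MT-CO3 in DLD1 stood at 5495, 5532, 6717 and 6533 CPM in LRCs and 6538, 6146, 7848 and 7482 CPM in non-LRCs. Its LRC sample was the lower of every same-numbered pair, though the ranges overlapped.

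**Figure D4:**
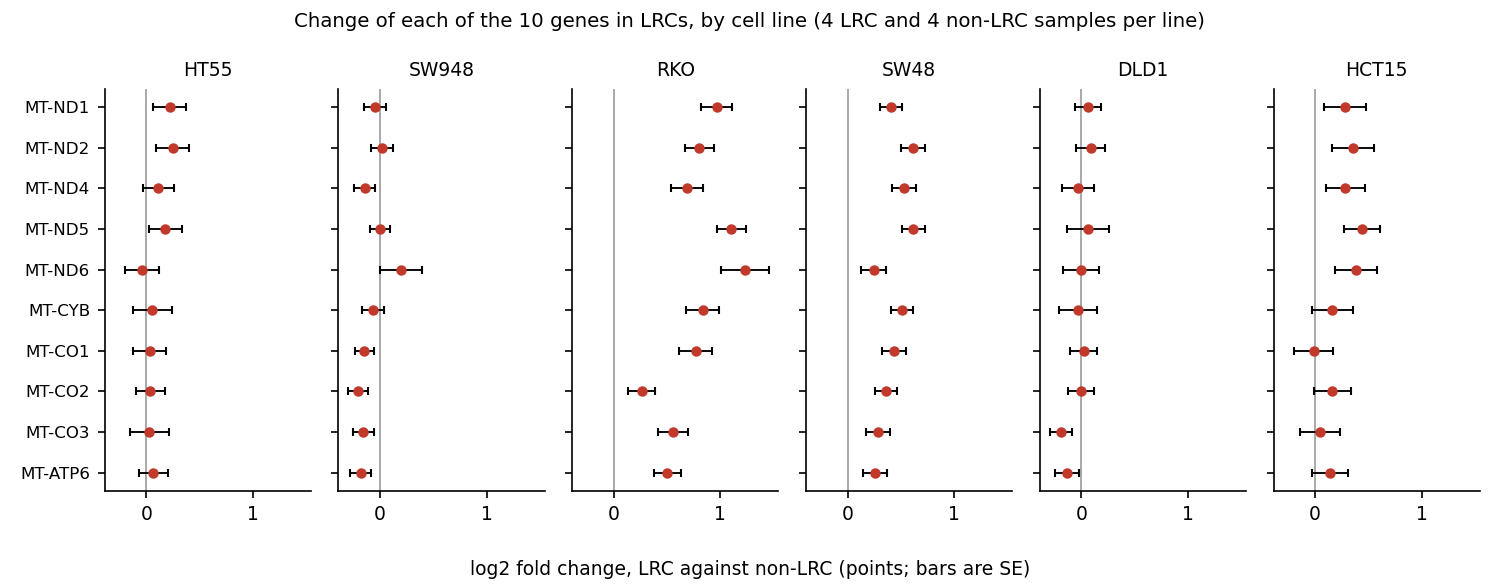
Log2 fold change of each of the 10 genes in LRCs against non-LRCs, by line, from edgeR; error bars are standard errors and the line at 0 marks equal levels. All 10 genes lie above 0 in RKO and SW48, and 3 of 10 do so in SW948.

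Across the 6 lines, with the line as a term in the fit, all 10 genes had a log2 fold change above 0, with a median of 0.24. The order followed the complexes in part. MT-ND5 (0.40 ± 0.09, SE), MT-ND2 (0.35 ± 0.07), MT-ND6 (0.33 ± 0.11) and MT-ND1 (0.31 ± 0.08) stood first, and MT-CO3 (0.09 ± 0.07), MT-CO2 (0.10 ± 0.06) and MT-ATP6 (0.11 ± 0.07) last. In each of the 6 lines the mean log2 fold change of the complex I genes was above that of the complex IV genes, and MT-ND5 exceeded MT-CO3 by 0.15 to 0.55. MT-ND2 and MT-ND5 were the 2 genes above 0 in all 6 lines, but in SW948 they had only 0.02 ± 0.10 and 0.002 ± 0.096 (SE). The mean CPM of MT-ND5 there was slightly lower in LRCs (3545 against 3565). Values this close to 0 show no rise in that line. Without RKO and SW48 the median log2 fold change of the 10 was 0.04.

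Other products of the mitochondrial genome were tested beside the 10. These and the further lists below were drawn up by hand with earlier results of these samples known. Of 3 further proteins, 2 ribosomal RNAs and 11 transfer RNAs with enough counts, 12 of 16 were higher in LRCs across the lines and none was lower (edgeR, adjusted p under 0.05; 12.2% of all genes were higher), with a median log2 fold change of 0.45, where the median over all genes tested was 0.01. MT-RNR2, the RNA of the large mitochondrial ribosomal subunit, rose by 0.71 ± 0.10 (SE, edgeR adjusted p = 1.98e-06) and MT-RNR1, that of the small subunit, by 0.58 ± 0.08 (adjusted p = 1.27e-06). The complex I subunits MT-ND3 and MT-ND4L rose by 0.32 ± 0.07 and 0.24 ± 0.08 (adjusted p = 0.00119 and 0.0188), and the ATP synthase subunit MT-ATP8 had 0.17 (adjusted p = 0.0937). Among transfer RNAs the smallest p belonged to MT-TW, with 0.99 ± 0.19 (adjusted p = 1.86e-04). MT-TW had only 418 counts over the 64 samples together, so it lay near the count filter and its value is imprecise. Without RKO 6 of 16 were higher, where 7.98% of all genes were, and without RKO and SW48 4 of 16, where 7.68% were. With replicates left out in turn the count was 8 to 11. Other thin transfer RNAs could also have met the filter through LRC samples alone. The count was lower when every sample had to reach 10 counts.

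By line, all 11 of these genes tested in RKO were higher in LRCs, where 20.4% of all genes were. The filter asked for 10 counts in 4 samples, which the 4 LRC samples of a line could meet alone. Thin transfer RNAs may have entered that way, so these counts by line are a description. In HCT15 2 of 9 were (0.728% of all genes), both of them ribosomal RNAs (MT-RNR2 log2 1.06 ± 0.17, adjusted p = 0.0310; MT-RNR1 0.83 ± 0.17, adjusted p = 0.0474). With the replicate block 3 were higher there (11.3% of all genes). In SW48 2 of 14 were higher (0.720% of all genes), and 7 with the block (5.36%). In DLD1 1 of 12 was higher, near the 6.67% of all genes, and 4 with the block (17.1%). In HT55 and SW948 none of 11 and none of 10 was called. Set against the 10 genes, MT-RNR2 counts were 7.46% of their summed counts in RKO LRCs and 4.09% in non-LRCs, and 7.89% and 4.39% in HCT15. In DLD1 they were 7.35% and 5.22%, in HT55 11.7% and 9.08%, in SW948 22.8% and 18.5%, and in SW48 6.62% and 6.25%. The mean share was higher in LRCs in all 6 lines, but the samples of the groups overlapped in HT55, SW948 and SW48. In SW48 they ran from 5.22% to 7.21% in LRCs and from 4.49% to 7.05% in non-LRCs.

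The nuclear subunits of the respiratory chain and ATP synthase, complex II among them, went the other way. Of 75 tested, 33 were lower in LRCs across the lines and none was higher, where 10.7% of all genes were lower (edgeR, adjusted p). Without replicate 2 of every group 21 were lower, and without replicate 3 20. The median log2 fold change was -0.11, and 74 of 75 were below 0. Lower were 15 of 36 subunits of complex I, 1 of 4 of complex II, 6 of 9 of complex III, 1 of 11 of complex IV and 10 of 15 of ATP synthase. The counts of complexes II and IV cannot be told from the 10.7% of all genes. ATP5F1A, the alpha subunit of ATP synthase, changed by -0.20 ± 0.03 (SE, adjusted p = 1.45e-06) and CYC1, cytochrome c1 of complex III, by -0.25 ± 0.04 (adjusted p = 1.43e-05). NDUFB8, an accessory subunit of complex I, changed by -0.22 ± 0.05 (adjusted p = 4.71e-04). The membrane anchor SDHC of complex II (-0.14 ± 0.04, adjusted p = 0.00495) and COX7B of complex IV (-0.17 ± 0.04, adjusted p = 0.00416) were the ones that fell in their complexes. Without RKO 17 of the nuclear subunits were lower, against 6.62% of all genes, and without RKO and SW48 16, against 6.63%.

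RKO carried the largest of these changes, with 58 of 75 nuclear subunits lower and none higher (21.0% of all genes lower) and a median log2 fold change of -0.37. The median over all genes tested in RKO was 0.01. Of the 2 subunits above 0, UQCRB of complex III, named after its value was seen, had 0.24 and did not pass. SW48, where the 10 mitochondrial genes were also higher, had no nuclear subunit called in either direction (0.0758% of all genes lower). In DLD1 6 of 75 were lower, a share like the 7.89% of all genes there, and 1 to 3 when any 1 replicate was left out. With the replicate block 20 were lower (16.6% of all genes). In HCT15 none was lower (0.250% of all genes), and 12 with the block (10% of all genes). HT55 and SW948 had none, and edgeR called no gene there.

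**Figure D5:**
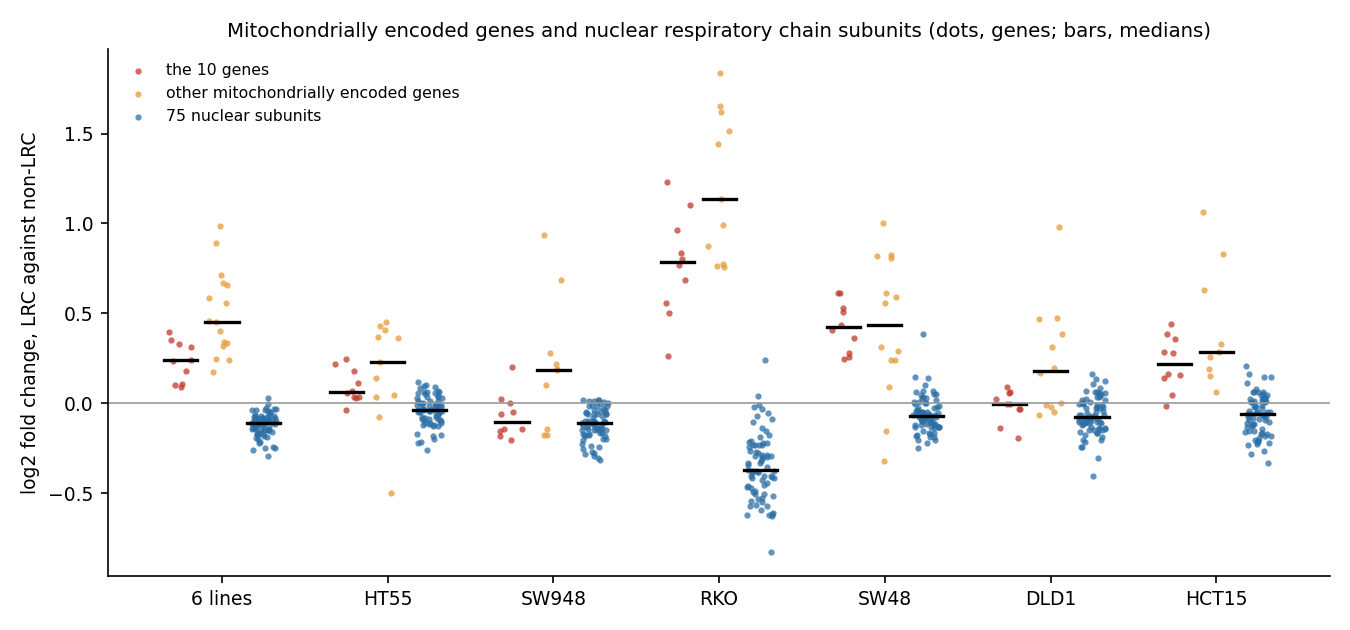
Log2 fold change in LRCs against non-LRCs for the 10 mitochondrially encoded genes (red), the other mitochondrially encoded genes tested (orange) and 75 nuclear subunits (blue), by line and across the 6 lines; points are genes and bars mark the median. In RKO the medians of the 10 genes and the nuclear subunits are 0.78 and -0.37, and across the lines 0.24 and -0.11.

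Lists of genes that copy, read and maintain mitochondrial DNA are set against the 10.7% of all genes that were lower and the 12.2% that were higher across the lines. With lists this short, 1 of 5 or 2 of 9 lower cannot be told from that share. Of 5 transcription genes 1 was lower: TFAM, which packages mitochondrial DNA and opens its promoters, changed by -0.19 ± 0.05 (SE, edgeR adjusted p = 0.00545). Of 16 RNA processing and stability genes 7 were lower, among them GRSF1 (-0.17 ± 0.03, adjusted p = 6.65e-05), which binds RNA in mitochondrial granules, and PNPT1 (-0.19 ± 0.04, adjusted p = 2.72e-04), a subunit of the RNA degradosome. Of 9 replication and maintenance genes 2 were lower, among them SSBP1, the single-stranded DNA binding protein (-0.19 ± 0.04, adjusted p = 2.74e-04). The 1 that was higher was RRM2B, the p53-inducible ribonucleotide reductase subunit that supplies deoxynucleotides outside S phase, which rose by 0.40 ± 0.09 (adjusted p = 0.00141). RRM2B rose by 1.56 ± 0.08 in RKO (adjusted p = 1.09e-09) and did not pass in the other 5 lines. Of 7 markers of mitochondrial mass 4 were lower, led by TOMM40, the import channel (-0.24 ± 0.05, adjusted p = 1.03e-04). None of 7 regulators of mitochondrial biogenesis passed by edgeR.

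The unsorted DLD1 cultures compare labeling and time in culture without a sort. Their mean summed shares, 2.64% to 4.19%, were below those of every sorted group. The samples had 4.68%, 4.92%, 4.40% and 2.75% in unlabeled cells on day 1 and 5.80%, 3.67%, 2.51% and 2.80% on the later day. CFSE-labeled cells had 2.19%, 2.04%, 3.01% and 3.32% on day 1 and 2.56%, 3.34%, 2.84% and 2.61% on the later day. Unlabeled samples thus spread widely, and each unlabeled group overlapped its CFSE-labeled counterpart. On day 1 reads outside genes were 12.1% to 14.8% in CFSE-labeled and 8.96% to 13.6% in unlabeled cells, against 5.19% to 8.35% on the later day, and the part of this in the values below was not tested.

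On day 1 all 10 genes had a lower mean in CFSE-labeled than in unlabeled cells. MT-CO1 stood at 2739 ± 537 CPM against 5248 ± 480 CPM (SD, n = 4; log2 -0.91 ± 0.24, SE), and MT-CO3 at 2021 ± 550 CPM against 3922 ± 599 CPM (log2 -0.93 ± 0.27), and neither overlapped. MT-ND1 had -0.78 ± 0.26 and overlapped. On the later day the means were again lower with CFSE, but all 10 overlapped. With replicates left out in turn the median log2 of the 10 ran from -0.85 to -0.38 on day 1 and from -0.48 to -0.01 on the later day. By the later day CFSE-labeled cells had 4840 ± 850 CPM in MT-CO1 and 3526 ± 597 CPM in MT-CO3, without overlap with day 1. MT-ND6 had 18.7 ± 5.7 CPM on day 1 and 9.93 ± 2.36 CPM on the later day, also without overlap. The median log2 of the 10 between the days was 0.09 in CFSE-labeled cells, and -0.16 to 0.24 with replicates left out in turn. In unlabeled cells all 10 overlapped between the days, and MT-ND1 had the lowest log2 fold change, -0.45 ± 0.26. All 4 contrasts share control groups with another, so they are not independent.

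The nuclear subunits moved with time in these cultures: 57 of 75 were higher on the later day in CFSE-labeled cells, where 20.2% of all genes were, and 17 of 75 in unlabeled cells, where 12.4% were. In unlabeled cells that count was 0 without replicate 1, 2 or 3, and in CFSE-labeled cells 21 without replicate 1 and 20 without replicate 2. On day 1 12 of 75 were lower with CFSE (12% of all genes), 0 without replicate 1 or 2 and 6 without replicate 3.

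Sorted DLD1 non-LRCs were also set against the unsorted CFSE-labeled DLD1 culture of the later day. The choice of the 10 genes used the values of both groups, so their values here are again a description. All 10 genes were higher in the sorted cells, by 1.89 to 2.46 times in mean CPM, and none overlapped. MT-ND5 had 4997, 4732, 7683 and 7674 CPM in the sorted cells and 2579 ± 196 CPM (SD, n = 4) in the unsorted culture, a log2 fold change of 1.29 ± 0.17 (SE). MT-ND6 had the largest, 1.32 ± 0.21, and MT-CYB the smallest, 0.93 ± 0.17. Of the 75 nuclear subunits 51 were lower by edgeR, where 32.7% of all genes were, and 4 were higher, where 31.9% were (ATP5F1B, ATP5MC2, UQCRB and UQCRC2, named after their values were seen). The sort, the experiment and the day cannot be told apart in this contrast for any of them.

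Over the 24 non-LRC samples, the nuclear-encoded genes whose log2 CPM ran most like the mean of the 10 were sought among 4842 genes averaging 50 CPM or more. BAG1 (Pearson r 0.91), the chromosome 1 copy MTATP6P1 (0.88), ECE1 (0.88), SEL1L (0.88) and KIF1C (0.87) were the most alike. PTP4A2 (-0.89), TMEM230 (-0.89), DAP (-0.88), KCTD20 (-0.88) and ATP5PF (-0.87) were the most opposed, the last being a nuclear subunit of ATP synthase. These samples come from 6 lines, so the values rest mainly on 6 line means and are a description.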

How the data were processed

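Per the labels, total RNA was read as 50-base single ends. The authors deposited raw counts per gene for each of the 64 samples, and the submitters' processing notes name TopHat, HTSeq, DESeq and hg19. Versions, annotation and strand setting are not given in the sources used here. Samples were grouped by line and sort, or by label and day for the controls.

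Genes that reached 10 counts in 4 or more of the samples fitted entered edgeR's quasi-likelihood test (edgeR 4.0.16, R 4.3.3) with TMM scaling, the line as a term across lines, and Benjamini-Hochberg adjustment over all genes at 0.05. DESeq2 1.42.0, other filters and scalings, the replicate block and leaving out each replicate were the alternatives. The fit was also run on simulated counts, in which the changed genes were all well counted. Standard errors of log2 values were worked out from edgeR's log2 value and F statistic, and those of share differences from the sample variances. CPM values come from edgeR, apart from those of the epithelial, blood, endothelial and stromal markers. At this depth MT-ND6 alone among the 10 genes had under 12180 counts in a sample.

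The genes and lists were chosen with earlier results of these data known. All 10 genes, the other mitochondrial proteins, ribosomal RNAs and nuclear copies are named, with the 3 genes of smallest p in LRCs against non-LRCs across the lines as candidates from every other list, and the 5 genes most like and 5 most unlike the mean of the 10. Of the listed genes NDUFA7 and PECAM1 were not matched to a row. Windows of 50 bases were searched in GRCh37 on both strands.

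Same-numbered LRC and non-LRC samples were checked for pairing by the correlation of their deviations from the group means. Every pair exceeded 0.1 in HT55 (0.22 to 0.51), SW48 (0.18 to 0.61), DLD1 (0.25 to 0.50) and HCT15 (0.33 to 0.56), and the numbers were taken to pair the samples there. They did not in SW948 (-0.01 to 0.23) or RKO (-0.09 to 0.01). Among the controls only the CFSE-labeled samples of the 2 days paired (0.18 to 0.31). The main fits did not use the pairing, so their standard errors and p-values are unpaired. The replicate block was the alternative that used it.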

Additional observations from a re-analysis of the deposited data

Results flagged for a closer look

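In 12 of 176 groups of 4 values tested (the summed share and the 10 genes in 16 groups), 1 sample stood apart from the other 3 by Dixon's ratio of gap to range at its 95% critical value. Chance gives about 1 in 20 groups, and the 10 genes move together, so these are not independent. In HT55 non-LRCs replicate 2 was high in the summed share (9.46% against 7.05% to 7.46%, ratio 0.830), in MT-ND2 (8492 CPM against 5963 to 6140, ratio 0.930) and in MT-CYB (19173 CPM against 12254 to 13342, ratio 0.843). Without replicate 2 of both populations edgeR called 808 genes in HT55, against 0 with it.

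In unlabeled DLD1 cells on day 1 replicate 4 was low in MT-ND5 (2787 CPM against 4526 to 4775, ratio 0.875) and in MT-ATP6 (1224 CPM against 1845 to 1960, ratio 0.844). On the later day replicate 1 of the unlabeled cells was high in MT-ND5 (5041 CPM against 2549 to 2910, ratio 0.855). In CFSE-labeled DLD1 cells of the later day replicate 2 was high in MT-CO1 (6102 CPM against 4249 to 4503, ratio 0.863) and MT-CO2 (3147 CPM against 2199 to 2268, ratio 0.927). In SW48 LRCs replicate 2 was low in MT-CYB (15999 CPM against 17205 to 17386, ratio 0.870) and high in MT-ATP6 (6020 CPM against 5362 to 5461, ratio 0.850). HCT15 LRC replicate 1 was low in MT-ND5 (4019 CPM against 5022 to 5195, ratio 0.853), and SW948 non-LRC replicate 4 was low in MT-CO2 (5208 CPM against 6266 to 6479, ratio 0.833).

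MT-CO3 was higher in the LRC sample of every same-numbered pair in 2 lines, HT55 and SW48, and lower in every pair in DLD1. MT-ATP6 was higher in every pair in 1 line, SW48, and lower in every pair in DLD1. The difference between lines was not tested for either gene.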

How the results depend on the processing

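No result past its threshold changed sign, but medians near 0 did. This happened with a replicate left out, as given below, and under other alternatives. Over the latter the median log2 of the 10 genes ran from -0.03 to 0.13 between the days in CFSE-labeled cells. In DLD1 LRCs against non-LRCs it ran from -0.025 to 0.0005. Among alternative values, 254 for comparisons and 1796 for single genes counted as the same. For medians, log2 values and shares of the 10 genes that meant a shift smaller than the SD within groups. For counts it meant a change of at most 1.5 times, and for tested genes the same call. In all 24 and 34 became weaker, 1 and 5 stronger, and 1 and 6 moved. Nuclear subunits lower in LRCs across the lines numbered 33, and 17 without RKO and 16 without RKO and SW48, both chosen after seeing the data. In DLD1 they numbered 6, 2 when all 48 sorted samples were fitted together and 20 with the replicate block. Higher on the later day in unlabeled DLD1 were 17, and 8 without TMM, 11 with no filter and 1 with only the 8 samples of the contrast. Lower with CFSE on day 1 were 12, and 7 with only the 8 samples. Other mitochondrially encoded genes higher across the lines were 12, 7 with at least 10 counts in every sample, and 6 and 4 without RKO and without RKO and SW48. The cause was not tested, though smaller fits use fewer samples.

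With each replicate left out in turn, the median log2 of the 10 genes ran from 0.20 to 0.27 across the lines, 0.70 to 1.02 in RKO, 0.37 to 0.47 in SW48, 0.06 to 0.43 in HCT15, 0.06 to 0.09 in HT55, -0.03 to 0.02 in DLD1 and -0.18 to -0.06 in SW948. It ran from -0.16 to 0.24 between the days in CFSE-labeled cells (0.09 with all replicates), from -0.48 to 0.00 in unlabeled cells (-0.14), from -0.85 to -0.38 with CFSE on day 1 and from -0.48 to -0.01 on the later day (-0.35). The DLD1 share difference ran from -0.12 to 0.03 percentage points. Nuclear subunits lower ran from 20 to 33 across the lines, 39 to 58 in RKO, 1 to 3 in DLD1, and 0 to 13 with CFSE on day 1. Those higher on the later day ran from 20 to 56 with CFSE and 0 to 18 unlabeled. Over all genes HCT15, with 137 calls, had 0 without replicate 1, 2 or 3 and 27 without replicate 4, DLD1, with 1978, had 581 to 756 without replicate 1, 3 or 4, and unlabeled cells between the days, with 3695, had 0 without replicate 1, 2 or 3.

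Over all genes, the replicate block moved the calls in SW48 from 105 to 1279, in HCT15 from 137 to 2987, in DLD1 from 1978 to 4591, in SW948 from 0 to 501 and with CFSE on the later day from 745 to 1511. With the block 36 nuclear subunits were lower across the lines and 54 in RKO. DESeq2 called 360 genes in SW48, 528 in HCT15 and 1521 with CFSE on the later day. No filter gave 285 in SW48, 347 in HCT15, 102 in HT55 and 973 in SW948.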
